A study of Mus musculus with 6 samples.

Results

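A set of 7 genes of vitamin D metabolism and signalling were taken from the 19618 genes counted in keratinocytes, the main cells of the epidermis, of mouse tail skin. They are Cyp27a1, Cyp2r1, Cyp27b1, Cyp24a1, Vdr, Rxra and Rxrb, matched by gene symbol; 6 of the 7 had counts and Cyp24a1 was not analysed here. The members were selected on the measured difference of Cyp27a1 between the genotypes in these same libraries, together with its pathway, so the values of the 6 genes between the genotypes are given as a description, without p-values, and support nothing further.

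Polyadenylated RNA came from mice aged 4 months, with 3 libraries per group. Knockout mice carried K14cre, a Cre recombinase driven by the keratin 14 promoter of basal keratinocytes, and were homozygous for a floxed allele of Gpr161, a receptor of the primary cilium known to restrain Hedgehog signalling. Control mice carried a floxed Gpr161 allele without K14cre, and 1 of the 3 was homozygous for it while the others were heterozygous, so the Cre transgene and the loss of Gpr161 cannot be told apart. The column tags name the knockout libraries DE679, DE685 and DE688 and the control libraries DE680, DE684 and DE689; the tags match no sample title, so which control was homozygous is not known. Values per library are given below in these orders, 3 for the knockout and then 3 for the control. Each knockout tag is adjacent in number to a control tag (DE679 and DE680, DE685 and DE684, DE688 and DE689), and a fit with these pairs as a block is given where it changes a call. Total estimated counts ranged from 17157864 to 25344399 per library, and each group held 1 library with Y-linked transcripts (DE685 and DE684). The counts of Gpr161 over the whole gene did not check the labels (log2 fold change -0.13, SE 0.11, edgeR adjusted p = 0.553), whereas the Hedgehog targets Gli1 and Ptch1 rose by 2.93 (SE 0.10, edgeR adjusted p = 1.77e-05) and 1.58 (SE 0.13, edgeR adjusted p = 0.00228) on the log2 scale. The labels name separate samples but not separate litters or days, and p-values measure the spread between these libraries.

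Vitamin D is made in the epidermis from a sterol precursor of cholesterol under ultraviolet light. A hydroxylase of the side chain, such as the microsomal enzyme Cyp2r1 or the mitochondrial enzyme Cyp27a1, turns it into calcidiol, and mitochondrial Cyp27b1 turns calcidiol into the hormone calcitriol, which Cyp24a1 breaks down. Calcitriol binds the receptor Vdr, which pairs with a retinoid X receptor (Rxra or Rxrb) on DNA. Keratinocytes are known to hold the whole pathway, and Vdr is known to be needed for hair cycling. Cyp27a1 also hydroxylates cholesterol, to an oxysterol that is a ligand of the liver X receptors, and acts in bile acid synthesis.

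Promoter sequences are shown for Cyp27a1, the gene with the largest difference, for Cyp27b1, the related hydroxylase whose groups overlapped, and for Vdr. Each runs from 250 bases before to 50 bases after a RefSeq start site in GRCm38.p6, is written 5′ to 3′ on the strand of the gene, and lies at chr1:74713285-74713584 (plus strand) for Cyp27a1, chr10:127047996-127048295 (plus strand) for Cyp27b1 and chr15:97908247-97908546 (minus strand) for Vdr. Capitals mark matches, on either strand, to GACCACC, the first letters of the Gli consensus GACCACCCA, and to AGGTCA or AGTTCA, half-sites of nuclear receptors.
Cyp27a1: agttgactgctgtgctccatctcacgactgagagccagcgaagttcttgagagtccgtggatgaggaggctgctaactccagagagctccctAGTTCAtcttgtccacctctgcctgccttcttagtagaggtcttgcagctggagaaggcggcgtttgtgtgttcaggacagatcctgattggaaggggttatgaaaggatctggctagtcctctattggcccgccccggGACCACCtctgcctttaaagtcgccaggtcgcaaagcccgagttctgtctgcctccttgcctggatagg
Cyp27b1: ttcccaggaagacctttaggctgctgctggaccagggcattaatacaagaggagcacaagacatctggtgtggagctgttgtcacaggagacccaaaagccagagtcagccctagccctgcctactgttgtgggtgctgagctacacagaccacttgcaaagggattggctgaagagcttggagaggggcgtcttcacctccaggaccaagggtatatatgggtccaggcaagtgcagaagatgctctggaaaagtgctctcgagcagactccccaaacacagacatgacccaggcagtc
Vdr: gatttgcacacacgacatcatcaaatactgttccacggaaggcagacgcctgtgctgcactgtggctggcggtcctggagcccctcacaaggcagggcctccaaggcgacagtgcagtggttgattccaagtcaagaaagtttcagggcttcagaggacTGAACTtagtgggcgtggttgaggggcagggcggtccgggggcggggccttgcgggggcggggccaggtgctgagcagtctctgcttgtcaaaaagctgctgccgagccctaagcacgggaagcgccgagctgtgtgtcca
The Cyp27a1 window held GACCACC starting 19 bases before the start site and AGTTCA starting 158 bases before it, both on the strand of the gene. The Vdr window held AGTTCA on the opposite strand, and the Cyp27b1 window held none of these letters. The Vdr window belongs to a start site inside the annotated gene. It reaches to base 97908546, while the gene, on the minus strand, begins at 97910630. GACCACC was found in 2.8% of 32851 promoter windows of the same length, AGTTCA in 14% and AGGTCA in 16.3%; the core GACCACC was chosen after the Cyp27a1 sequence was seen. None of the 3 windows held the whole GACCACCCA, which was in 0.253% of all windows, or a direct repeat of AGGTCA or AGTTCA, alike or mixed, with 3 bases between, which at most 2 of all windows held in any of its forms. A match describes letters and is no evidence of binding.

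Cyp27a1 had the largest difference of the 6 members. Its level was 17.5, 23.7 and 23.2 CPM in the knockout libraries and 5.01, 4.96 and 5.75 CPM in the control libraries, where CPM is the count relative to the size of its library after trimmed-mean (TMM) scaling. The lowest knockout library, DE679, thus lay well above the highest control library, and the means were 21.5 ± 3.48 and 5.24 ± 0.443 CPM (SD, n = 3 each). On the log2 scale the knockout was higher by 2.03 (SE 0.15), which is 4.09-fold with a 95% interval of 3.21 to 5.21. These levels rest on 411 to 597 counts in a knockout library and 113 to 145 in a control library. In the control, the spread between libraries (8.46% of the mean) was close to the counting error (9%), while in the knockout it was 16.2% against 4.67%, with DE679 the low library. The gene (chromosome 1, 74713574 to 74737892, plus strand, GRCm38) ranked 24 by log2 fold change among the 187 genes with a mean of at least 1 CPM that were higher in the knockout at an edgeR adjusted p under 0.05.

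Cyp2r1, the microsomal side-chain hydroxylase, was too low for its difference to be measured closely. It had 21, 10 and 24 counts in the knockout libraries, and 27, 17 and 19 in the control libraries. In CPM these are 0.89, 0.578 and 0.934 against 1.2, 0.746 and 0.754, and the groups overlapped. Within the pairs of adjacent tags the direction was mixed, with the knockout library lower for DE679 and DE685 and higher for DE688. The count of 10 alone has an exact Poisson 95% interval of 4.8 to 18.4, which covers counting error only. The fold between the groups was 0.903 with a 95% interval of 0.513 to 1.59, so a fall or a rise within these bounds cannot be told from no change. A detection limit was not computed. Cyp2r1 lies on chromosome 7 (114549682 to 114562972, minus strand).

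Cyp27b1, which makes calcitriol, was low but countable. Its level was 1.95, 2.66 and 2.1 CPM in the knockout and 1.33, 2.28 and 1.71 CPM in the control, from 30 to 54 counts per library. The control library DE684 stood above DE679 and DE688 of the knockout, so the groups overlapped. Within the pairs of adjacent tags the knockout library was the higher in all 3 (1.95 against 1.33, 2.66 against 2.28 and 2.1 against 1.71 CPM). The log2 fold change was 0.33 (SE 0.28), and the 95% interval of the fold ran from 0.8 to 1.97. The spread between libraries was 16.6% of the mean in the knockout, against a counting error of 14.6%, and 27% in the control, against 15.5%. Cyp27b1 lies on chromosome 10 (127048250 to 127053006, plus strand). For Cyp24a1, the catabolic enzyme and a classical target of Vdr, no level can be given; the smallest sum over the 6 libraries of any gene analysed was 10 counts, and whether Cyp24a1 was below that is not known.

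The receptor itself was abundant and somewhat higher in the knockout libraries. Vdr had 288, 326 and 348 CPM in the knockout libraries and 233, 234 and 275 CPM in the control libraries. The groups did not overlap, although DE679 and DE689 lay close together. Mean levels were 321 ± 30.7 and 247 ± 24.0 CPM (SD, n = 3 each). Their difference was 0.37 on the log2 scale (SE 0.10), or 1.3-fold with a 95% interval of 1.11 to 1.51. Counting error was near 1% of the mean (1.2% in the knockout and 1.31% in the control), so the spread of 9.56% and 9.7% was between libraries. Vdr (chromosome 15, 97854425 to 97910630, minus strand) did not pass the threshold in the edgeR fit over all genes, and passed it in the DESeq2 Wald test and in edgeR with the adjacent tags as a replicate block (0.37, SE 0.06).

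The partners of Vdr showed smaller differences. Rxra (chromosome 2, 27676440 to 27762957, plus strand) had 495, 413 and 467 CPM in the knockout and 424, 409 and 408 CPM in the control. DE685 lay below DE680, so the groups overlapped, although the knockout library was the higher in each pair of adjacent tags (495 against 424, 413 against 409 and 467 against 408 CPM). The log2 fold change was 0.15 (SE 0.08; fold 1.11, 95% interval 0.981 to 1.25). Rxrb (chromosome 17, 34031812 to 34038399, plus strand) had 74.9, 73.9 and 84.2 CPM in the knockout and 79.3, 72.3 and 84.9 CPM in the control. The Rxrb groups covered nearly the same range, with a fold of 0.985 and a 95% interval of 0.865 to 1.12, which leaves out any change larger than these bounds. Within the tag pairs the direction of Rxrb was mixed (74.9 against 79.3, 73.9 against 72.3 and 84.2 against 84.9 CPM). Rxrg, the remaining retinoid X receptor, was not analysed here.

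Of the 6 members tested, 1, Cyp27a1, was higher in the knockout at an edgeR adjusted p under 0.05 and 0 were lower, where 1.24% of all 15422 genes tested were higher and 0.357% lower by that rule (1.60% in either direction). The groups did not overlap for 2 of the 6, Cyp27a1 and Vdr, where they did not overlap for 25.6% of all genes tested. Since the set was built around Cyp27a1, nothing is read from these shares. With the DESeq2 Wald test 2 members passed, Cyp27a1 and Vdr, and 6.05% of 14273 genes with an adjusted p did so in either direction. The same 2 passed in edgeR with the tag pairs as a block, where 4.56% of the 15422 genes did. The median log2 fold change of the 6 members was 0.24, beside -0.0036 over all genes tested.

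**Figure D1:**
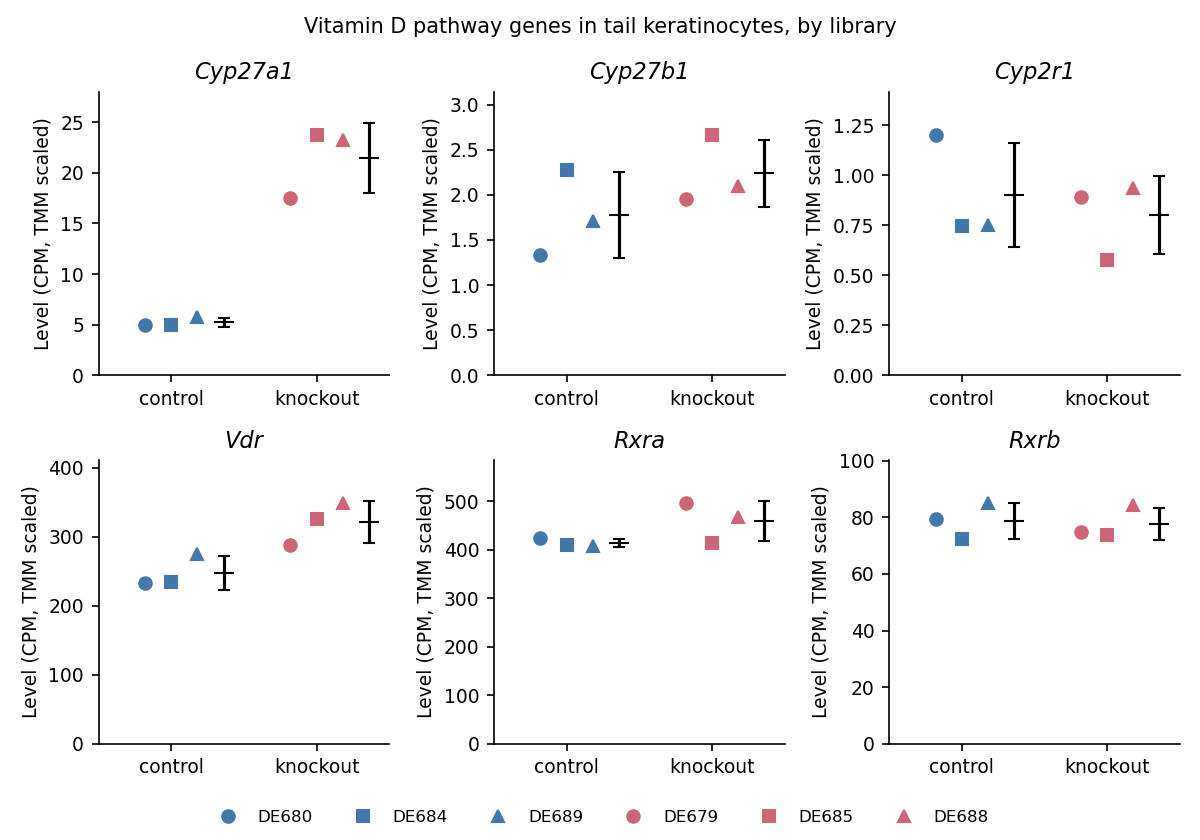
Level of each of the 6 members in CPM (vertical axes from 0, a separate scale per gene) in the 3 control and 3 knockout libraries; each symbol is 1 library and the black bars are the group mean ± SD. Cyp27a1 libraries of the knockout sit between 17.5 and 23.7 CPM and those of the control between 4.96 and 5.75, while the groups overlap for Cyp27b1, Cyp2r1, Rxra and Rxrb.

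Levels of different genes were compared per kilobase of annotated exon. On that scale (CPM per kilobase, over all 6 libraries) Rxra was highest, at 74.7 to 90.6 with a median of 76.6, followed by Vdr at 41.2 to 61.7 with a median of 49.8 and Rxrb at 18.2 to 21.4 with a median of 19.4. Cyp27a1 came next at 2.28 to 10.9, with a median of 5.34 that falls between its groups. The receptors and their partners were therefore among the more abundant transcripts of these cells, whereas the enzymes ranked lower. Percentiles among all genes tested were 96.9 for Rxra, 94.5 for Vdr and 83.2 for Rxrb. Cyp27a1 was at the percentile 56, by its mean over all 6 libraries, knockout and control together. Cyp27b1 had 0.517 to 1.03 and Cyp2r1 had 0.273 to 0.566, at the percentiles 19.4 and 11.7. Neighbours in this order did not overlap in any library except Cyp27b1 and Cyp2r1, whose ranges met. The order was the same with the length of the longest transcript in place of all exons, a setting chosen after the data were seen.

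The balance between the enzymes and between the receptors followed from these levels. Per kilobase, Cyp27a1 exceeded Cyp27b1 10.6, 10.6 and 13.1 times in the knockout libraries but 4.46, 2.57 and 3.99 times in the control libraries. Cyp27a1 was thus the more abundant of these 2 mitochondrial enzymes in every library, by a wider margin in the knockout. The ratio of Vdr to Rxra was 0.682 ± 0.106 in the knockout and 0.578 ± 0.0640 in the control (SD, n = 3 each), with overlapping groups. The ratio of Rxra to Rxrb overlapped as well, at 4.3 ± 0.439 and 3.83 ± 0.313. The ratio of Vdr to Rxrb did not overlap, at 2.7, 3.1 and 2.91 in the knockout libraries against 2.07, 2.27 and 2.28 in the control libraries.

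**Figure D2:**
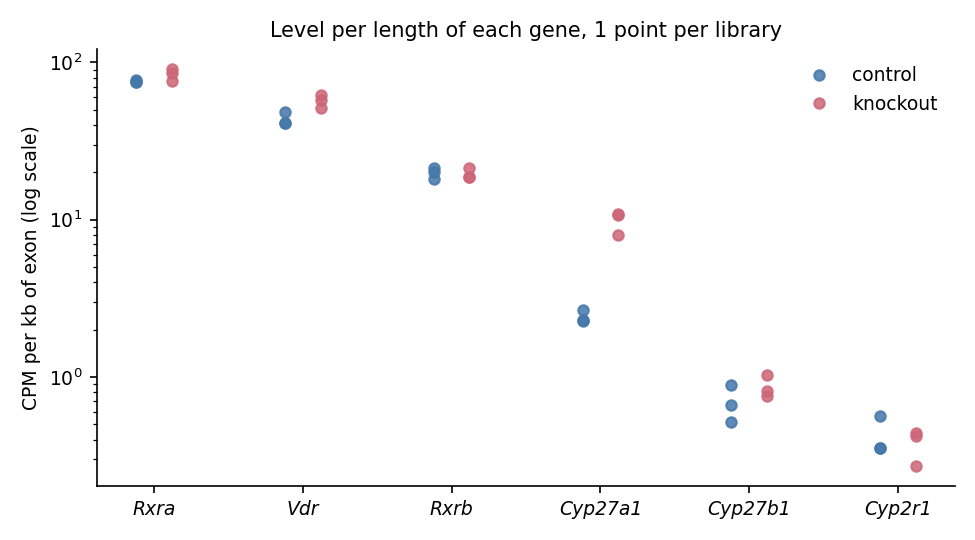
Level per kilobase of exon (CPM per kb, log axis) of the 6 members in order of their median; each point is 1 library, blue for control and red for knockout. Rxra, Vdr and Rxrb stand above 18 in every library, Cyp27a1 moves from 2.28 to 2.65 in the control to 8.04 to 10.9 in the knockout, and Cyp27b1 and Cyp2r1 stay near or under 1.

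The gene next to Cyp27a1 differed in the same direction. Prkag3, a regulatory subunit of AMP-activated protein kinase known from skeletal muscle, has its own annotated end 1029 bases beyond that of Cyp27a1 and lies on the opposite strand (chromosome 1, 74738922 to 74749221), so the 2 genes face each other with their ends. It had 2.5, 5.89 and 2.64 CPM in the knockout and 0.399, 0.57 and 0.555 CPM in the control, from 59, 102 and 68 counts against 9, 13 and 14. Every knockout library was above every control library, and Prkag3 rose by 2.83 on the log2 scale (SE 0.42, edgeR adjusted p = 0.0237). Leaving out DE680, DE684, DE688 or DE689 ended this call (edgeR adjusted p from 0.0364 to 0.0883 over the 6 fits without a library), as did limma-voom (adjusted p = 0.0533). The annotated exons of the 2 genes share no base, and whether the deposited counts were assigned by strand is not given in the sources used here; whether transcripts of Cyp27a1 reach into Prkag3 was not tested. Summed skeletal muscle markers had 1.56 to 1.82 CPM in the knockout and 1.38 to 2.19 in the control. Only 2 of the 5 markers had counts, Mylpf with 23 to 46 per library and Ckm with 1 to 5. The sum is thus close to Mylpf alone and cannot tell how much muscle was present.

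Other genes around Cyp27a1 did not pass. Among the 10 genes tested within 200 kb besides Cyp27a1, a window chosen after the values were seen, Prkag3 was the 1 past the threshold. On the other side, Ttll4, a tubulin ligase-like gene that ends 9843 bases before Cyp27a1, had 39.6, 44.4 and 40 CPM in the knockout and 40.5, 38.9 and 45.7 CPM in the control (log2 fold change -0.01, SE 0.09, edgeR adjusted p = 0.946). Beyond Prkag3, the Wnt ligand gene Wnt6 had 9.2, 9.99 and 12.8 CPM against 7.72, 3.38 and 7.77 (0.76, SE 0.31, edgeR adjusted p = 0.237), and Wnt10a had a log2 fold change of -0.00 (SE 0.15). The genes past the threshold in this window were thus the adjacent pair.

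**Figure D3:**
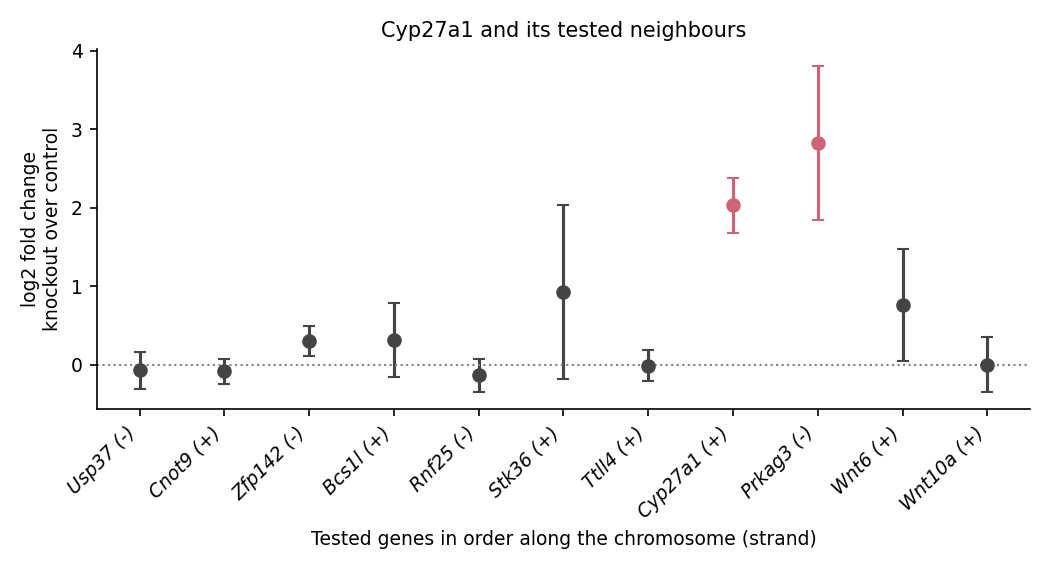
Log2 fold change, knockout over control, of Cyp27a1 and the 10 tested genes within 200 kb, in their order along the chromosome, with the strand in brackets and bars for the 95% interval; red marks an edgeR adjusted p under 0.05. Cyp27a1 at 2.03 and Prkag3 at 2.83 stand above the other genes; the wide bar of Stk36 reflects counts of 8 to 34 per library.

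The genes whose pattern over the 6 libraries was most like that of Cyp27a1 were Crocc, Scnn1b, Slc7a6, Smo and Efnb2. Their Pearson correlations of log2(CPM + 0.5) with Cyp27a1 were 0.9991, 0.9963, 0.9949, 0.9946 and 0.9934, the highest among 13664 genes with a mean of at least 1 CPM. The correlations describe 6 libraries in 2 groups and mostly restate the difference between the groups; 186 genes reached 0.95 or more, and Vdr had 0.917. Scnn1b, a subunit of the epithelial sodium channel, had 12.5, 14.6 and 17.1 CPM in the knockout and 2.26, 2.5 and 2.9 CPM in the control, a rise larger than that of Cyp27a1 (log2 fold change 2.52, SE 0.17, edgeR adjusted p = 0.00139). Smo, the signal transducer of the Hedgehog pathway, had 155, 160 and 163 CPM against 117, 118 and 117 and rose by 0.43 (SE 0.05, edgeR adjusted p = 0.00883). Crocc, which encodes the ciliary rootlet protein, had 15.3, 16.2 and 16.2 CPM against 12.7, 12.7 and 12.9 and did not pass (0.31, SE 0.09, edgeR adjusted p = 0.129). Efnb2, which encodes an ephrin ligand, had 391, 438 and 456 CPM against 281, 274 and 300 and rose by 0.59 (SE 0.07, edgeR adjusted p = 0.0135), a call lost without DE680 or DE688 (adjusted p 0.064 and 0.0606). Slc7a6, an amino acid transporter, had 43.8, 44.9 and 45.5 CPM against 33.1, 32 and 33.7 (0.44, SE 0.06, edgeR adjusted p = 0.0213), and its call was lost without any 1 of the 6 libraries (adjusted p from 0.0565 to 0.112). The call of Smo was lost without DE688 (edgeR adjusted p = 0.055).

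The rest of the pathway was described with 9 lists of 86 genes, of which 63 were tested. In the edgeR fit over all genes 1 of the 63, Pthlh, was higher and 0 were lower, where 1.60% of all genes tested passed in either direction, and the median log2 fold change was 0.06 beside -0.0036 over all genes tested. At an unadjusted p under 0.05 there were 14 of 63, where 19.0% of all genes tested had one. The DESeq2 Wald test gave an adjusted p for 62 list genes and passed 8 (Pthlh, Sc5d, Cyp2j6, Txnip, Fgfr1, Rara, Hsd3b7 and Apoe). Of all genes with an adjusted p, 6.05% passed in DESeq2. With sex read from Xist and Y-linked counts as a covariate, edgeR passed 3 (Pthlh, Txnip and Rara), where 2.65% of all genes passed. With the tag pairs as a replicate block, edgeR passed 7 (Pthlh, Txnip, Rara, Hsd3b7 and Acox2 higher, Sc5d and Cyp2j6 lower), where 4.56% of all genes passed.

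Among the hormonal regulators of Cyp27b1 and Cyp24a1, 2 of 6 genes were tested. Pthlh encodes parathyroid hormone-related protein, a secreted peptide of keratinocytes. It had 25.1, 28.7 and 31.2 CPM in the knockout and 8.74, 6.76 and 7.54 CPM in the control. The groups were far apart, and Pthlh rose by 1.88 on the log2 scale (SE 0.13; 3.68-fold, 95% interval 2.99 to 4.54; edgeR adjusted p = 0.00139). Its receptor gene Pth1r had 2 to 7 counts per library and the calcium-sensing receptor gene Casr 0 to 12, both too low to test. Fgfr1, a receptor for the hormone Fgf23 in the kidney, had 124, 123 and 156 CPM in the knockout and 113, 90.1 and 99.4 in the control, without overlap (0.41, SE 0.12, edgeR adjusted p = 0.132).

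On the supply side of the pathway no gene passed the threshold in edgeR without a block, and Sc5d and Cyp2j6 passed with it. Of the 5 precursor and uptake genes tested, 2 had an unadjusted p under 0.05, where 19.0% of all genes tested had one. Sc5d, a desaturase that makes the sterol precursor of vitamin D, had 41.6, 35.9 and 43.4 CPM in the knockout against 65.9, 46.5 and 53.3 in the control, with every knockout library lower (-0.45, SE 0.13, edgeR adjusted p = 0.141, and 0.0368 with the replicate block). Dhcr7, the reductase that turns that precursor into cholesterol, had 144 to 196 CPM in the knockout and 143 to 184 in the control. Cubn, part of the receptor that takes up vitamin D with its carrier protein, had 24, 17 and 25 counts against 13, 7 and 18 (0.88, SE 0.37, edgeR adjusted p = 0.257). The mitochondrial enzymes Cyp27a1 and Cyp27b1 take electrons from ferredoxin (Fdx1) and its reductase (Fdxr). Fdx1 had 17.1, 14.4 and 16.8 CPM against 17.3, 14 and 19.5, which overlapped (-0.07, SE 0.14, edgeR adjusted p = 0.823). Fdxr had 11.2, 11.7 and 11 CPM against 9.76, 8.77 and 9.44, which did not (0.28, SE 0.11, edgeR adjusted p = 0.222). Cyp2j6, 1 of the 2 other vitamin D metabolising P450 genes tested, was lower in every knockout library, at 71.2, 72.7 and 66.8 CPM against 89, 83 and 85.5 (-0.29, SE 0.06, edgeR adjusted p = 0.0646, and 0.0414 with the replicate block), and Cyp3a13 was higher in every one (0.42, SE 0.13, edgeR adjusted p = 0.157).

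Most cofactors and targets of Vdr were short of the threshold. Of 11 cofactors tested, 4 had a log2 fold change above 0 and 7 below 0, within -0.15 to 0.24 and with a median of -0.05. Of these 11, 0 passed in edgeR or in DESeq2. An unadjusted edgeR p under 0.05 was found for 1 of them, beside 19.0% of all genes tested. Hr (hairless), a corepressor that binds Vdr in skin and, like Vdr, is known to be needed for hair cycling, had 979, 836 and 1070 CPM in the knockout and 872, 720 and 855 in the control (0.24, SE 0.11, edgeR adjusted p = 0.29), with overlap. Of 13 known Vdr targets tested, 7 had a log2 fold change above 0 and 6 below 0, with a median of 0.10. In edgeR with no term but genotype 0 passed, and 3 had an unadjusted p under 0.05, where 19.0% of all genes tested had one. In DESeq2 1 passed, Txnip. Txnip, an inhibitor of thioredoxin induced by calcitriol in some cells, had 393, 433 and 353 CPM in the knockout and 259, 339 and 283 in the control (0.42, SE 0.11). Its edgeR adjusted p was 0.12, and 0.0228 with the sex covariate and 0.0207 with the replicate block. Plcg1, a phospholipase of calcium signalling, had 169, 185 and 175 CPM against 187, 196 and 210, lower in every knockout library (-0.17, SE 0.06, edgeR adjusted p = 0.225). The calcium channel gene Trpv6, a target in the gut, had 21.5, 19.8 and 19.9 CPM against 15.2, 19.8 and 20.9, with overlap (0.13, edgeR adjusted p = 0.61).

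The sterol side of Cyp27a1 and the other partners of the retinoid X receptors were likewise short of the threshold in edgeR with no term but genotype. Over all 15422 genes tested, 7608 had a log2 fold change above 0 and 7814 below 0, with a median of -0.0036. An unadjusted edgeR p under 0.05 was found for 19.0% of them. Of 10 genes tested in the bile acid and oxysterol pathway, 7 had a log2 fold change above 0 and 3 below 0, with a median of 0.07 and 1 at an unadjusted p under 0.05. That gene was Hsd3b7, which acts on hydroxylated sterols and had 19.5, 17.2 and 21.7 CPM against 15.8, 11.5 and 11.5 (0.59, SE 0.16, edgeR adjusted p = 0.111, and 0.0482 with the replicate block). Acox2, a peroxisomal oxidase of bile acid side chains, had 13.4, 11.9 and 8.21 CPM against 8.43, 8.6 and 3.57, with overlap (0.70, SE 0.33, edgeR adjusted p = 0.302, and 0.0477 with the replicate block). Of 6 liver X receptor targets, 5 had a log2 fold change above 0, with a median of 0.13. Apoe, a lipid carrier, had 3280, 3052 and 3329 CPM in the knockout and 2746, 2659 and 2619 in the control (0.27, SE 0.06, edgeR adjusted p = 0.0894). The cholesterol exporter Abcg1 overlapped between the groups (0.23, SE 0.16, edgeR adjusted p = 0.473). Of 11 other partner receptors, 8 had a log2 fold change above 0, with a median of 0.10. The retinoic acid receptor Rara had 49.2, 37 and 43 CPM against 32.6, 29.1 and 35.2 (0.42, SE 0.12, edgeR adjusted p = 0.132). Its edgeR adjusted p was 0.0471 with the sex covariate and 0.0438 with the replicate block. The thyroid hormone receptor Thra had 133, 128 and 138 CPM against 116, 122 and 126 (0.13, SE 0.06, edgeR adjusted p = 0.274).

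**Figure D4:**
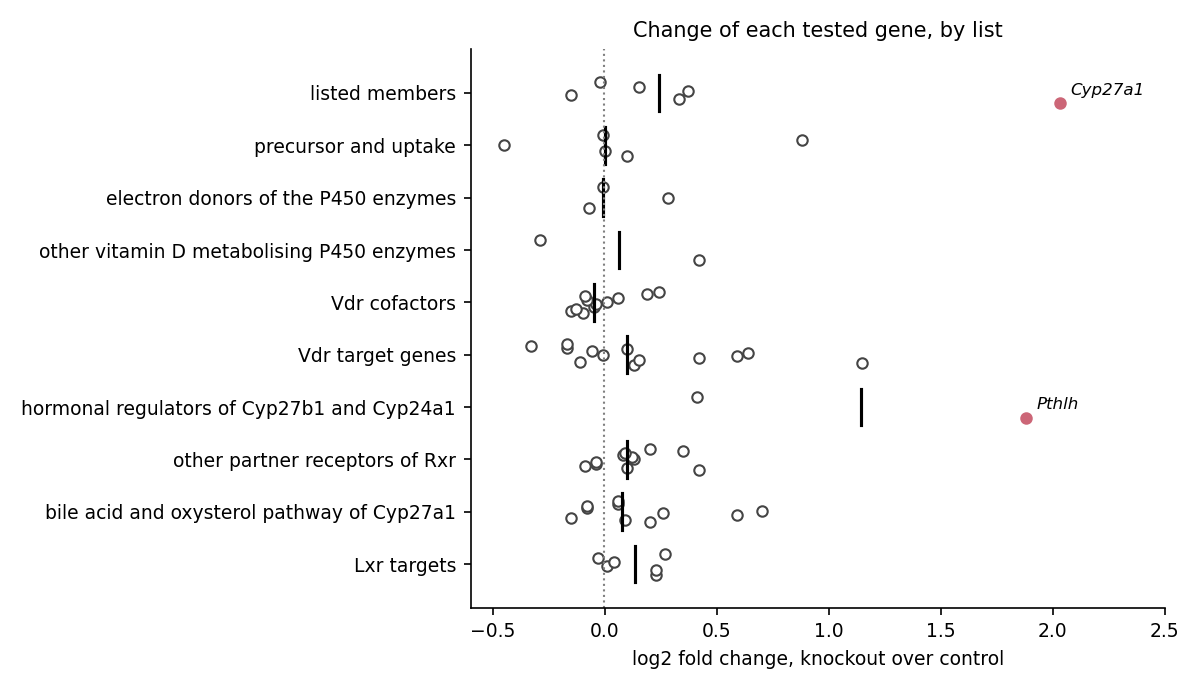
Log2 fold change, knockout over control, of every tested gene of the 6 members and of the 9 lists; filled points have an edgeR adjusted p under 0.05, black bars are the median of each list and the dotted line is the median of all genes tested. Cyp27a1 at 2.03 and Pthlh at 1.88 stand apart from the open points, which lie between -0.45 and 1.15.

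Markers of the cell types that such a preparation can hold were summed per library beside these results. The defining keratinocyte markers were abundant: the basal list (Krt5 and Krt14 among 5 genes) had 28451 to 32442 CPM in the knockout and 24930 to 29948 in the control, and the suprabasal list 17963 to 25137 and 20381 to 34232. The sums of the hair follicle, T cell, endothelial and fibroblast lists did not overlap between the groups. Among single genes tested the groups did not overlap for 25.6%, so nothing is read from these sums. The hair follicle list of 6 genes had 4119 to 4671 CPM in the knockout and 3187 to 3757 in the control, most of it Krt15 and Krt79. In that list 0 genes were past the edgeR threshold, with Sox9 nearest (edgeR adjusted p = 0.0551). Krt79, Lgr5 and Cd34 overlapped between the groups, and only Cd34 had a log2 fold change below 0 (-0.29, SE 0.22). The T cell list had 41.4 to 58.4 against 21.2 to 33.6 CPM, most of it Thy1, while Cd3e, Cd3g, Cd3d and Trdc each overlapped between the groups. The endothelial list was lower, at 2.079 to 3.617 against 3.649 to 7.107 CPM, so its groups nearly met. In that list 0 genes were past the edgeR threshold. Pecam1, Kdr and Emcn overlapped between the groups, and Cdh5 and Tie1 had only 1 to 30 counts per library. The fibroblast list had 129 to 142.3 against 37.4 to 79.1 CPM, but without Dcn, a gene past the edgeR threshold (adjusted p = 0.00782), the other 5 genes had 15 to 19 against 12.5 to 38.6 CPM and overlapped. Macrophages are a known site of Cyp27a1 expression. Their list of 7 genes had 7.86 to 18 CPM in the knockout and 5.79 to 11.9 in the control. The sum was higher in the knockout library of each tag pair (14.08 against 11.93, 7.856 against 5.791 and 18.01 against 10.63 CPM). So were the basal keratinocyte, hair follicle, T cell, fibroblast and Langerhans cell sums, while the suprabasal and endothelial sums were lower in each pair. DE685, with the highest Cyp27a1 level (23.7 CPM), had the lowest macrophage sum of the knockout libraries, below the controls DE680 and DE689. Most of the macrophage sum was Csf1r, with 241, 60 and 333 counts in the knockout and 180, 41 and 167 in the control, and Cd68, with 64 to 89 counts per library. Adgre1, Lyz2, Mrc1, C1qa and C1qb had 0 to 18 counts per library, with Mrc1 at 0 in DE679 and DE685, Adgre1 in DE684 and Lyz2 in DE689. Sums also overlapped for the sebaceous gland (268.5 to 444.8 against 285.7 to 391.2 CPM), Langerhans cell (89.5 to 180.5 against 63.4 to 157.6), melanocyte (63 to 100.4 against 42.1 to 68), adipocyte (1.53 to 3.23 against 1.42 to 5.24), Merkel cell (6.3 to 9.3 against 5.28 to 6.32) and Schwann cell (53.3 to 55.9 against 46.8 to 59.9) lists. In the Schwann cell list, whose sum is mostly Mbp, Ncmap was higher in the knockout, at 1.95, 2.14 and 2.26 against 0.665, 0.921 and 0.555 CPM (edgeR adjusted p = 0.0456). In bulk libraries fewer cells of a type and less RNA per cell cannot be told apart, and the part of these cell types in the differences above was not tested.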

How the data were processed

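Estimated counts for each gene were deposited by the authors, beside a normalized signal that they had made by scaling each library and adding a small offset. The submitters' processing notes name bcl2fastq 2.20, cutadapt 1.18, STAR 2.7.0f, Partek and mm10, without their roles; per the file headers, columns come from sorted alignments with duplicates marked. Stranded counting and the annotation are not given in the sources used here.

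Estimated counts were rounded, where the design had allowed for raw counts. Genes were filtered with filterByExpr of edgeR 4.0.16, scaled with TMM and fitted with glmQLFit and glmQLFTest on all 6 libraries with no term but genotype. Adjustment was by Benjamini-Hochberg over the 15422 genes tested, with a threshold of 0.05. Standard errors were derived from the F statistics. The fit was tested on simulated data. Labels do not say that tags pair the animals. Deviations from the group means correlated at 0.26, 0.45 and 0.45 within adjacent tags and from -0.39 to -0.04 otherwise (13679 genes). Sex matched within each pair. Deviations cancel out within a group, so positive values within adjacent tags force negative values elsewhere. The contrast between them is thus partly fixed in advance. The fit with the replicate block used these same libraries, so its added calls are no separate evidence of pairing. Exon lengths are from GENCODE M21 (GRCm38), whose coordinates matched 98.9% of the 19099 symbols found in it, and promoters from RefSeq (GRCm38.p6), which held 6 of the 7 members. Intervals from counts cover counting error only.

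The members, lists and rules were chosen with earlier results of these data known. Named are the members, Gpr161, Gli1, Ptch1, list genes past the threshold and the 2 with the smallest p in each list, and the 5 genes most like Cyp27a1, except 1 list gene that is not reported here; Prkag3, Ttll4, Wnt6, Wnt10a, Dhcr7, Trpv6, Pth1r, Casr and the marker genes were singled out after their values were seen. Alternatives were scaling by RLE or upper quartile, an unfiltered table, only genes averaging 1 CPM or more, DESeq2 1.42.0, limma-voom (limma 3.58.1), limma-trend on the authors' normalized signal (log2, 1 added), sex as a covariate, leaving out each library and, chosen after the data were seen, adjacent tags as a replicate block.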

Additional observations from a re-analysis of the deposited data

How the results depend on the processing

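As a description, the log2 fold change of Cyp27a1, on which the members were selected, ran from 1.95 to 2.17 when a library was left out and from 1.83 to 2.05 otherwise; the 1.83 came from the authors' values with 1 added before the log, which lowers the change of low genes by construction. Members past the threshold numbered 1 in every alternative except the DESeq2 Wald test and the replicate block of adjacent tags, which each gave 2, with Vdr added; the cause was not tested. Vdr stayed between 0.31 and 0.46, Rxra between 0.09 and 0.22 and Cyp27b1 between 0.16 and 0.55 over all alternatives. Cyp2r1 ranged from -0.27 to 0.11 when a library was left out, and Rxrb from -0.08 to 0.04, so neither has a direction; Cyp2r1 could not be fitted at a mean of at least 1 CPM. List genes past the threshold numbered 1, against 8 with DESeq2, 7 with the replicate block and 3 with the sex covariate. Pthlh passed in all alternatives (1.75 to 1.98). Genes past the threshold in all numbered 247, against 864 with DESeq2 and 409 with the sex covariate. The replicate block gave 704, with all 247 among them. The number was 69 (without DE688) to 121 (without DE684) when a library was left out. Those fits had fewer libraries, and the cause of their lower numbers was not tested. Fdx1 ranged from -0.19 to 0.05 in these fits and changed sign without DE685 (0.000459) and without DE689 (0.05). Slc7a6 lost the threshold in all 6 such fits, Efnb2 in 2 and Smo in 1. Gpr161 stayed negative and short of the threshold (adjusted p from 0.19 to 0.859). The columns carry no replicate numbers of the labels, so the planned block on those could not be fitted. The block of adjacent tags changed no other call among the genes named by the rule than those given above with its p and Vdr. Depth limits Cyp2r1 and Cyp27b1 most.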
